A study of Arabidopsis thaliana with 8 samples.

Results

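The change in RNA levels between day 4 and day 7 after sowing at 27 °C was measured in whole seedlings of a pair of Arabidopsis thaliana hybrids. It rests on 4 of the 8 RNA-seq libraries of the series, chosen by their labelled temperature, day and hybrid: C24xpif4-101 (the pif4 hybrid) and C24xCol (the Col hybrid) on day 7, and the same hybrids on day 4. The pif4-101 parent carries a mutant allele of PIF4, a bHLH transcription factor, so the pif4 hybrid has a C24 copy of the gene as well. The other 4 libraries are the same hybrids and days at 22 °C. All seeds lay at 4 °C in the dark for 3 days on ½ MS agar plates (0.8% agar) and germinated for 1 day at 22 °C in 8 h of light and 16 h of darkness. Seedlings were then grown at 27 °C or 22 °C and collected at ZT0, the start of the light period. RNA came from seedlings pooled to about 30 mg, so each condition is 1 library of 1 pool. Nothing in the labels tells of separate cultures, so the p-values below reflect the scatter among these 8 libraries, which may be technical.

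Over these days an Arabidopsis seedling finishes using the reserves of the seed and begins to live from its first leaves. Seed maturation leaves storage proteins, oil bodies and late embryogenesis abundant (LEA) proteins in the embryo, and their mRNAs are degraded after germination. Warmth below the level of heat stress acts through PIF4 and auxin to lengthen hypocotyls and petioles, while small heat shock proteins, which bind unfolding proteins, are classically induced by stronger heat.

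The day 7 libraries held 11125696 counts in the pif4 hybrid and 25440561 in the Col hybrid, against 20898400 and 9128810 on day 4. The log2 of the total thus differed between day 7 and day 4 by -0.91 in the pif4 hybrid and by 1.48 in the Col hybrid. The 100 most abundant genes moved the other way, with a median log2 difference of 0.34 in the pif4 hybrid and -0.62 in the Col hybrid. PIF4 itself was read in every library, with 157 CPM, which are counts scaled to the size of the library, in the pif4 hybrid and 187 CPM in the Col hybrid on day 7, against 186 and 175 CPM on day 4. Its levels at 22 °C were 62.7 and 73.0 CPM on day 7, against 79.8 and 97.4 CPM on day 4. The counts do not tell the alleles apart, and PIF4 did not pass the test between days. Both shoot and root markers were present, as the label of whole seedlings implies: the 38 light harvesting and Rubisco genes summed to 43400 to 77630 CPM and the 8 tested Casparian strip and endodermis genes to 94.7 to 147 CPM at 27 °C. A set of 17 loci stood apart in the Col hybrid on day 7, at 1.83% to 12.5% of the lowest of the other 3 libraries at 27 °C, where all 3 were above 5 CPM. In the pif4 hybrid on day 7, the pif4 hybrid on day 4 and the Col hybrid on day 4 the same rule found 1, 1 and 0 loci. The 17 loci include PDH-E1 ALPHA, KAS III and EIF2 GAMMA, and 15 of them have a space in their RefSeq symbol, as do 48 of the 14852 loci that could have met the rule. They were also low in the Col hybrid on day 7 at 22 °C, at 3.27% to 22.7% of the pif4 hybrid. Of the 17, 7 passed the test as lower on day 7.

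Of 20054 genes with enough counts, 3122 rose (15.6%) and 2638 fell (13.2%) on day 7 at an adjusted p under 0.05, by edgeR's quasi-likelihood test with the hybrid as a block and Benjamini-Hochberg adjustment over all of them. At least a 2-fold difference was reached by 788 of the genes that rose and 538 of those that fell. Both day 7 libraries lay above both day 4 libraries for 32.4% of all genes tested and below them for 32.1%. The median log2 fold change over all genes was -0.01. The number of calls depended on single libraries: it was 2156 without the pif4 hybrid library of day 7, 2948 without the pif4 hybrid library of day 4, 4399 without the Col hybrid library of day 7 and 8711 without the Col hybrid library of day 4, against 5760 with all 8. Of the 108 genes named here for a call, 26 overlap another annotated gene, among them BCAT4, AK3, GSTF11, HSP17.4, LEA7 and OLEO1, and whether the counting used the strand is not given in the sources used here, so that reads of such partners may be counted together. For some genes only the libraries of 1 day reached the count minimum, so that they could be tested only because they differed, and these are given below by their levels, with no fitted fold change or p value. In bulk seedlings, fewer cells of a type and less RNA per cell cannot be told apart.

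The hybrids moved the same way for 72.8% of all genes tested. Across genes, which are not independent replicates, their log2 differences had a Pearson r of 0.67 and a Spearman rho of 0.62. Each hybrid has 1 library per day at 27 °C, and the difference between the hybrids in the day effect was not tested. Of the 29 gene lists examined, the seed, LEA, glucosinolate, small heat shock and root hair lists had the medians farthest from 0, and in each of these both hybrids had the same sign. Only 1 day reached the count minimum for 3 of 4, 3 of 13, 1 of 29, 2 of 12 and 2 of 8 tested members, in that order. For such members a large change of the same sign in both hybrids is favoured by the choice of genes. The place of these lists thus supports nothing further where such members are many.

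**Figure D1:**
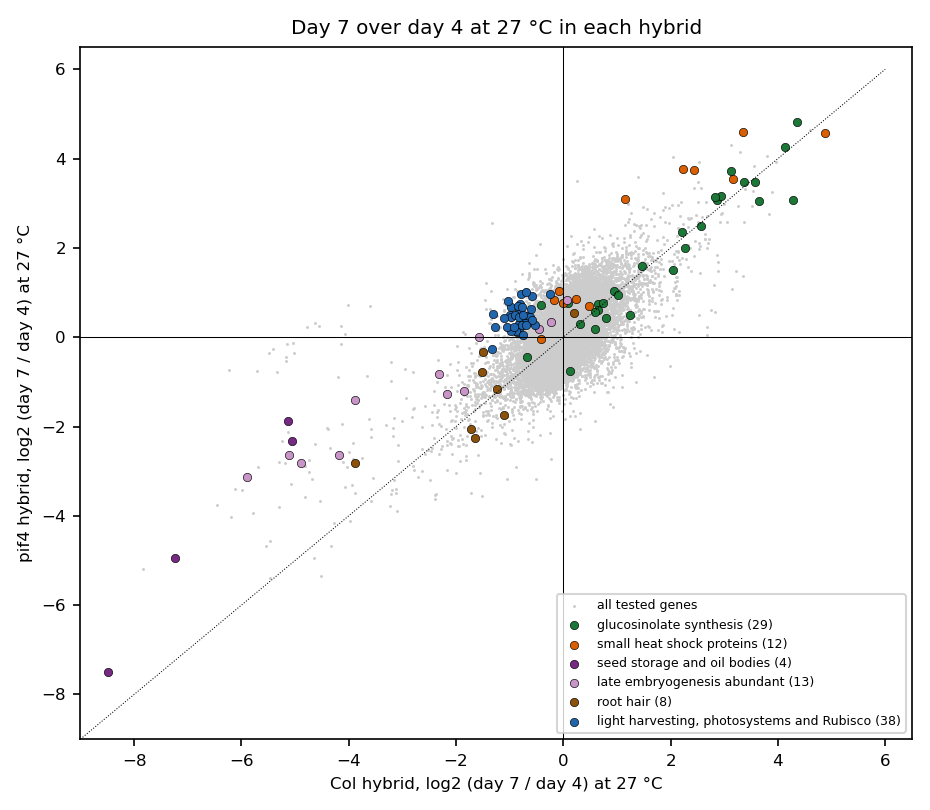
Log2 ratio of day 7 over day 4 at 27 °C in the pif4 hybrid (vertical axis) against that in the Col hybrid (horizontal axis), 1 point per gene, for 20054 genes and 6 gene lists in colour. Glucosinolate genes lie along the dotted line of equal change, small heat shock genes lie mostly above it, and the 38 light harvesting genes sit left of 0 in the Col hybrid and mostly above 0 in the pif4 hybrid.

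**Figure D2:**
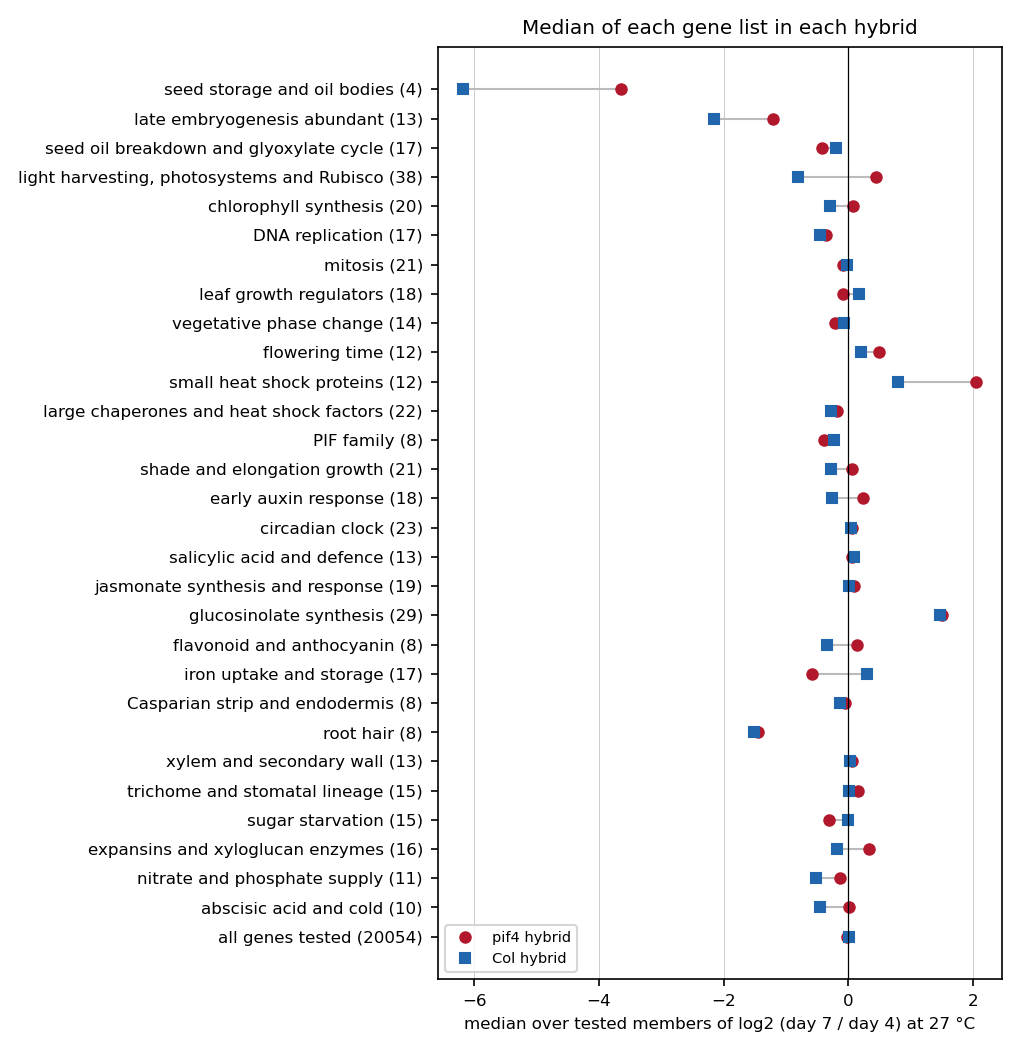
Median log2 ratio of day 7 over day 4 at 27 °C over the tested members of each list, in the pif4 hybrid (circles) and the Col hybrid (squares), with the number of members in brackets. The glucosinolate medians are 1.51 and 1.47, and those of light harvesting genes are 0.44 and -0.81.

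Transcripts of several seed genes were lower on day 7 than on day 4 in both hybrids at 27 °C. The sum of the 4 tested storage and oil body genes was also higher on day 4 at 27 °C than on either day at 22 °C, with a limit given below. Of 15 genes for storage proteins and oil bodies, 4 had enough counts to be tested, and all 4 fell. For 3 of those, only the day 4 libraries reached the count minimum, so the count of 4 is a description and supports nothing further. Among the untested members, the storage protein genes CRU2, CRU3 and SESA1 to SESA5 had 0 to 5 counts in every library on both days. The untested OLEO3, OLEO4, AT5G50600 and AT4G26740 had at most 22 counts in any library. The summed level of the 4 was 1.59 CPM in the pif4 hybrid and 0.774 CPM in the Col hybrid on day 7, against 37.0 and 137 CPM on day 4. At 22 °C the same sum was 3.45 and 2.72 CPM on day 7, against 1.05 and 1.43 CPM on day 4. The count minimum was set on the libraries at 27 °C alone, so genes high on day 4 at 27 °C were favoured. The higher sum in those libraries thus supports nothing further. CRA1, a cruciferin and thus a main storage protein of the seed, had 0 and 0.0704 CPM on day 7 in the pif4 and Col hybrids, against 25.8 and 76.9 CPM on day 4. That is 2 counts over both day 7 libraries and 1297 over both day 4 libraries, a ratio of 807 with an exact 95% interval of 223 to 6670 that covers counting error only. OLEO2, an oleosin of the oil body surface, had 1 count on day 7 and 346 on day 4, and its ratio was 430.0 (76.8 to 17100). OLEO1, another oleosin, had 1 and 66 counts, a ratio of 82.1 (14.2 to 3290). PER1, a peroxiredoxin of dormant seeds and the only one of the 4 with a day 7 library above the count minimum, had 1.499 and 0.669 CPM on day 7 in the pif4 and Col hybrids, against 5.86 and 28.3 CPM on day 4 (log2 fold change -4.09 ± 0.55 SE, adjusted p = 0.000143). Both day 7 libraries were below both day 4 libraries for each of these genes, and the Col hybrid was above the pif4 hybrid on day 4 in all 4.

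The day 4 libraries were also the higher ones for other genes with the largest falls among those averaging at least 5 CPM. AT5G35660, annotated as a glycine-rich protein, had 0 counts in both day 7 libraries and 419 in the day 4 libraries, which makes it at least 174-fold lower on day 7 against a floor of 3 counts over the group. TIP3;1, a tonoplast aquaporin of seeds, had 0.353 and 0.246 CPM on day 7 in the pif4 and Col hybrids, against 5.2 and 24.6 CPM on day 4. DELTA-VPE, a vacuolar protease of the seed coat, had 0.176 and 0.141 CPM on day 7 in the pif4 and Col hybrids, against 13.2 and 12.5 CPM on day 4. DELTA-VPE was nearly equal in the hybrids on day 4, unlike the storage genes. AT3G15670, annotated as a LEA family protein like AT3G17520 below, had 0.353 and 0.176 CPM on day 7 in the pif4 and Col hybrids, against 7.45 and 17.5 CPM on day 4. For all of these only the day 4 libraries reached the count minimum.

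Of the 14 genes in the LEA list, 13 were tested, 8 fell and none rose, against 13.2% and 15.6% of all genes, with a median log2 fold change of -1.76, of -1.2 in the pif4 hybrid and of -2.16 in the Col hybrid. The number that fell was 6 to 10 when single libraries were left out, and the median was -1.13 without the Col hybrid library of day 4. Again 3 of the 8 reached the count minimum only through the day 4 libraries, so the count and median support nothing further. LEA7 had 1.32 and 0.422 CPM on day 7 in the pif4 and Col hybrids, against 12.8 and 33.5 CPM on day 4 (log2 fold change -5.01 ± 0.52 SE, adjusted p = 1.5e-05). LEA4-5 had 0.529 and 0.528 CPM on day 7 in the pif4 and Col hybrids, against 4.05 and 12.1 CPM on day 4. ECP63, another LEA protein of the seed, had 0.176 and 0.0352 CPM on day 7 in the pif4 and Col hybrids, against 1.85 and 6.05 CPM on day 4. RAB18 (AT5G66400), a dehydrin that responds to abscisic acid, had 22.8 and 24.7 CPM on day 7 in the pif4 and Col hybrids, against 52.7 and 89.3 CPM on day 4 (log2 fold change -1.55 ± 0.18 SE, adjusted p = 5.09e-05). In all of these the day 4 libraries were the higher ones and the Col hybrid on day 4 was the highest of the 4. The dehydrins COR47, ERD10 and LTI30, which also respond to cold, did not pass the test, and their log2 fold changes were -0.15, 0.04 and -0.2. ABI3, the transcription factor that holds the seed maturation program, had 0.353 and 0.317 CPM on day 7 in the pif4 and Col hybrids, against 6.21 and 5.399 CPM on day 4. For LEA4-5, ECP63 and ABI3 only the day 4 libraries reached the count minimum. LTI65, an abscisic acid and drought responsive protein, had 6.52 and 6.69 CPM on day 7 in the pif4 and Col hybrids, against 23.4 and 60.5 CPM on day 4 (log2 fold change -2.6 ± 0.25 SE, adjusted p = 7.44e-06).

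**Figure D3:**
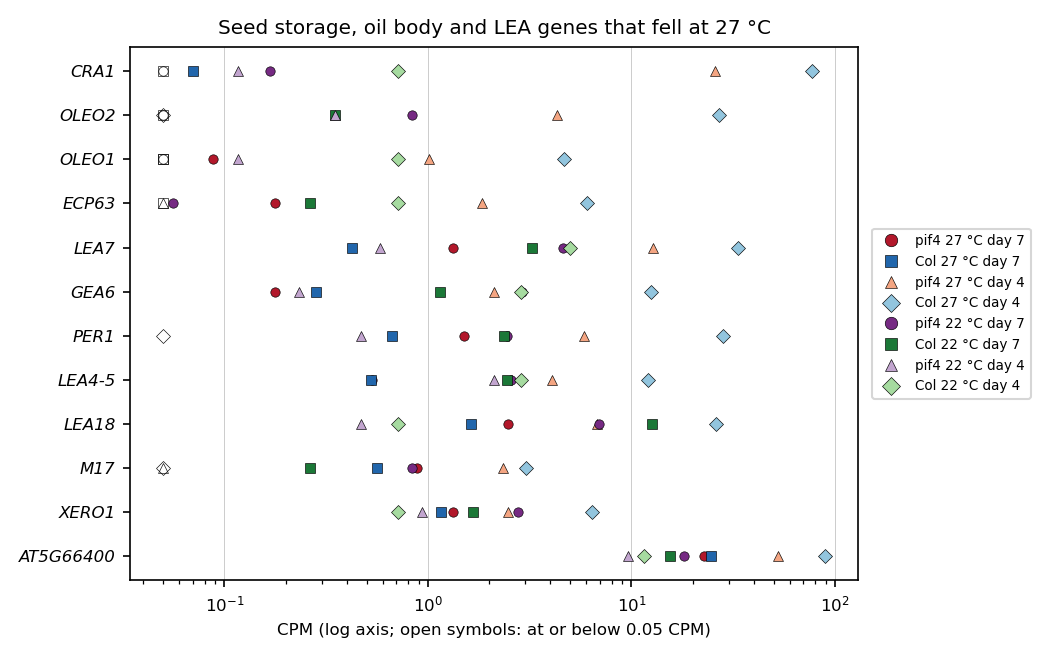
Level in CPM (horizontal log axis) of the 12 storage, oil body and LEA genes that fell on day 7 at 27 °C, in all 8 libraries; open symbols mark values at or below 0.05 CPM. The orange triangle and light blue diamond (pif4 and Col hybrids on day 4 at 27 °C) are the rightmost for most of the genes, as for CRA1 with 25.8 and 76.9 CPM; in LEA18, XERO1 and GEA6 libraries at 22 °C lie above the pif4 hybrid on day 4.

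A pair of these promoters is shown because each carries the core of the abscisic acid response element, ACGTG, more than once. The sequences are the 250 bases before the annotated start, from the TAIR10.1 assembly of RefSeq, written 5′ to 3′ on the strand of the gene, with ACGTG on either strand in capitals. LEA7 lies at chr1:19619474-19619723 (plus strand) and OLEO1 at chr4:12900180-12900429 (plus strand).
LEA7: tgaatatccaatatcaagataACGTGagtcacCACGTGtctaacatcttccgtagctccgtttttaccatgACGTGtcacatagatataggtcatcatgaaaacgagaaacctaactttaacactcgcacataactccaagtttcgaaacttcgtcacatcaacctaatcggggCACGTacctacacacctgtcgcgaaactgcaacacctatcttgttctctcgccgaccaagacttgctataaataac
OLEO1: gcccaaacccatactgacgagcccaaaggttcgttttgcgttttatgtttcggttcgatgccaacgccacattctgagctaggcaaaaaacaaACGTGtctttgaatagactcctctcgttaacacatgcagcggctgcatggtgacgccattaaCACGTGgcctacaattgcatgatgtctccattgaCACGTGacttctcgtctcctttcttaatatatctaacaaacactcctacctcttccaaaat
Each of the 2 windows held 5 matches, counting both strands, and the palindrome CACGTG counts as a pair of them. In the window from 250 bases before to 50 after the start, ACGTG was found in 11 of 15 promoters of the storage and oil body list (73.3%) and in 11 of 14 of the LEA list (78.6%), against 26.9% of all 26711 promoters, 27.4% of those of genes that rose and 31.8% of those of genes that fell. Over the 29 lists the share ran from 11.1% (Casparian strip and endodermis) to 78.6% (LEA). It was 78.3% in the circadian clock list and 66.7% in the flavonoid list, whose median log2 fold changes were 0.0365 and 0.000384. A match is a description of the letters only.

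Seed oil is turned into sugar by enzymes of lipid breakdown, peroxisomal oxidation and the glyoxylate cycle. Of 17 such genes, 6 fell and none rose, against 13.2% and 15.6% of all genes, with a median of -0.27. The number that fell was 2 without the pif4 hybrid library of day 7 and 8 without the Col hybrid library of day 4. ICL, isocitrate lyase of the glyoxylate cycle, had 33.3 and 17.35 CPM on day 7 in the pif4 and Col hybrids, against 137 and 369.8 CPM on day 4 (log2 fold change -3.16 ± 0.4 SE, adjusted p = 9.39e-05). MLS, malate synthase, the next enzyme of that cycle, had 18.9 and 23.1 CPM on day 7 in the pif4 and Col hybrids, against 34.7 and 56.1 CPM on day 4 (log2 fold change -1.09 ± 0.15 SE, adjusted p = 0.000192). ACX3, an acyl-CoA oxidase of the peroxisome, had 60.7 and 62.4 CPM on day 7 in the pif4 and Col hybrids, against 85.7 and 85.4 CPM on day 4 (log2 fold change -0.48 ± 0.13 SE, adjusted p = 0.0167). From the 4 libraries at 27 °C alone ACX3 lost its call (adjusted p = 0.125). ACX3 also lost it without the Col or the pif4 hybrid library of day 7, at log2 fold changes of -0.437 and -0.52. Both day 4 libraries were above both day 7 libraries for these enzymes, and for ICL and MLS the Col hybrid on day 4 was the highest of the 4.

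Genes of glucosinolate synthesis rose together in both hybrids. Glucosinolates are sulfur-containing defence compounds of the cabbage family, made from methionine (aliphatic) or tryptophan (indolic). Of 29 tested genes of the 30 in the list, 23 rose and none fell, against 15.6% and 13.2% of all genes, with a median log2 fold change of 1.54, of 1.51 in the pif4 hybrid and of 1.47 in the Col hybrid. Of the 8 largest rises among genes averaging at least 5 CPM at 27 °C, BCAT4, AOP2, FMO GS-OX3 and FMO GS-OX1 are in the list. The summed level of the 29 genes was 2314 CPM in the pif4 hybrid and 1765 CPM in the Col hybrid on day 7, against 646.5 and 538 CPM on day 4. The count of genes that rose stayed between 21 and 25 when each library was left out in turn. It was 23 also from the 4 libraries at 27 °C alone.

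MYB28, MYB29 and MYB76 are the transcription factors that switch on the aliphatic branch. MYB28 had 41.5 and 39.4 CPM on day 7 in the pif4 and Col hybrids, against 29.4 and 16.6 CPM on day 4 (log2 fold change 0.83 ± 0.17 SE, adjusted p = 0.00338). MYB29 had 12.6 and 6.83 CPM on day 7 in the pif4 and Col hybrids, against 1.37 and 0.216 CPM on day 4 (log2 fold change 3.34 ± 0.32 SE, adjusted p = 7.17e-06). MYB76, the third of this group, had 5.91 and 4.05 CPM on day 7 in the pif4 and Col hybrids, against 0.573 and 0.432 CPM on day 4, and only its day 7 libraries reached the count minimum. The days did not overlap for any of the 3, and the pif4 hybrid on day 7 was the highest of the 4 libraries at 27 °C for each.

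Methionine chain elongation comes next. BCAT4, the aminotransferase that opens it, had 179.9 and 107 CPM on day 7 in the pif4 and Col hybrids, against 6.26 and 5.07 CPM on day 4 (log2 fold change 4.65 ± 0.23 SE, adjusted p = 1.31e-08). MAM1, which condenses the chain with acetyl-CoA, had 374 and 307 CPM on day 7 in the pif4 and Col hybrids, against 65.98 and 51.5 CPM on day 4 (log2 fold change 2.54 ± 0.17 SE, adjusted p = 1.75e-07). IMD1, an isopropylmalate dehydrogenase of the same cycle, had 199 and 128 CPM on day 7 in the pif4 and Col hybrids, against 22.6 and 17.9 CPM on day 4 (log2 fold change 3.0 ± 0.19 SE, adjusted p = 1.21e-07). Each was higher in both day 7 libraries, and in each the pif4 hybrid was above the Col hybrid on both days. IMS2, also known as MAM3, which makes longer chains, had 56.5 and 49.3 CPM on day 7 in the pif4 and Col hybrids, against 6.65 and 3.78 CPM on day 4 (log2 fold change 3.3 ± 0.22 SE, adjusted p = 1.57e-07).

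The core structure is made by cytochromes P450 and sulfotransferases. CYP79F1 had 112 and 64.8 CPM on day 7 in the pif4 and Col hybrids, against 9.87 and 6.15 CPM on day 4 (log2 fold change 3.42 ± 0.2 SE, adjusted p = 6.97e-08). Its neighbour CYP79F2, a close copy between which reads could be split, had 29.5 and 23.1 CPM on day 7 in the pif4 and Col hybrids, against 5.64 and 4.86 CPM on day 4 (log2 fold change 2.3 ± 0.23 SE, adjusted p = 1.09e-05). CYP83A1, the next enzyme, had 278 and 219.5 CPM on day 7 in the pif4 and Col hybrids, against 30.9 and 28.4 CPM on day 4 (log2 fold change 3.06 ± 0.17 SE, adjusted p = 4.47e-08). Every one of these was higher on day 7 without overlap. SOT17, a sulfotransferase of the last core step, had 32.97 and 26.47 CPM on day 7 in the pif4 and Col hybrids, against 8.15 and 5.399 CPM on day 4 (log2 fold change 2.09 ± 0.17 SE, adjusted p = 1.56e-06).

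Side chains are modified by FMO GS-OX oxygenases and by AOP2. AOP2 had 196 and 89.8 CPM on day 7 in the pif4 and Col hybrids, against 10.1 and 4.97 CPM on day 4 (log2 fold change 4.18 ± 0.26 SE, adjusted p = 1.21e-07). FMO GS-OX1 had 23.45 and 17.1 CPM on day 7 in the pif4 and Col hybrids, against 1.98 and 1.296 CPM on day 4 (log2 fold change 3.59 ± 0.22 SE, adjusted p = 9.12e-08). FMO GS-OX3 had 18.7 and 10.6 CPM on day 7 in the pif4 and Col hybrids, against 1.28 and 1.08 CPM on day 4 (log2 fold change 3.63 ± 0.23 SE, adjusted p = 1.21e-07). The pif4 hybrid was above the Col hybrid in all of these on day 7. The indolic branch moved by smaller amounts: CYP79B3 rose by 0.98 on the log2 scale (adjusted p = 0.000698), while CYP79B2, MYB34, MYB122, SOT16, CYP81F2 and CYP81F4 did not pass the test, with log2 fold changes from -0.6 to 0.44. These 6 were the only tested members that did not, and each acts, as background, in indolic glucosinolate synthesis.

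Of the other large rises, GSTF14, a phi class glutathione S-transferase, had 117 and 78.7 CPM on day 7 in the pif4 and Col hybrids, against 4.54 and 3.13 CPM on day 4 (log2 fold change 4.65 ± 0.18 SE, adjusted p = 1.83e-09). GSTF11, another of that class, had 16.2 and 8.87 CPM on day 7 in the pif4 and Col hybrids, against 0.926 and 0.432 CPM on day 4 (log2 fold change 4.1 ± 0.25 SE, adjusted p = 9.86e-08). AK3, an aspartate kinase at the head of the pathway to methionine, threonine and lysine, had 146 and 88.7 CPM on day 7 in the pif4 and Col hybrids, against 8.68 and 6.26 CPM on day 4 (log2 fold change 3.95 ± 0.18 SE, adjusted p = 7.29e-09). All 3 were several times higher in both hybrids on day 7.

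**Figure D4:**
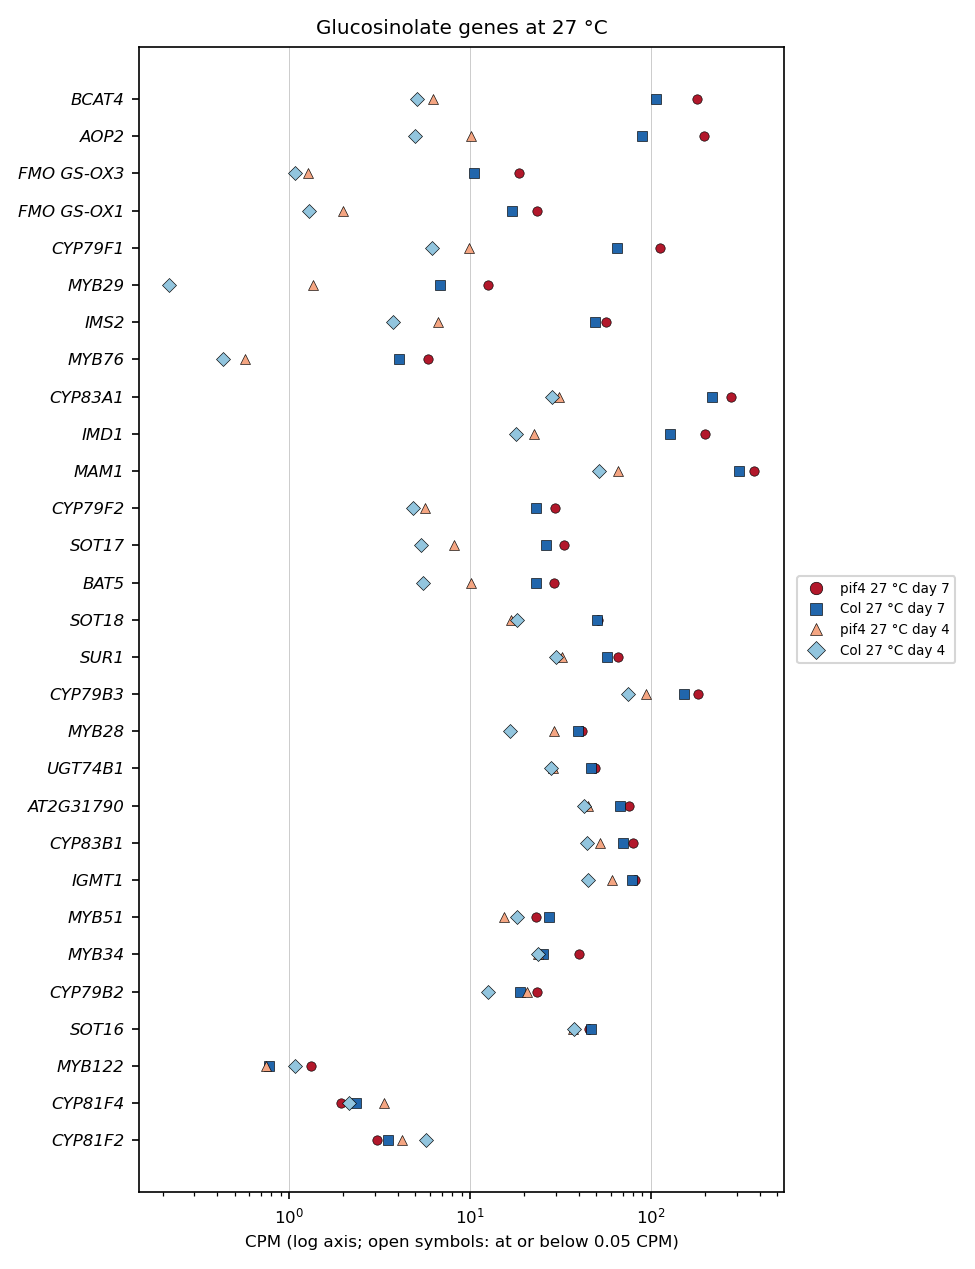
Level in CPM (horizontal log axis) of the 29 tested glucosinolate genes in the 4 libraries at 27 °C, ordered from the largest rise at the top. Day 7 libraries (circle, pif4 hybrid; square, Col hybrid) lie right of the day 4 libraries in the upper rows, as for BCAT4 with 179.9 and 107 CPM on day 7 against 6.26 and 5.07 CPM on day 4, and mix with them in the lowest rows.

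The promoter of CYP83A1 is shown as an example of the list; it lies at chr4:7992430-7992679 (minus strand; 250 bases before the start, TAIR10.1, ACGTG on either strand in capitals).
CYP83A1: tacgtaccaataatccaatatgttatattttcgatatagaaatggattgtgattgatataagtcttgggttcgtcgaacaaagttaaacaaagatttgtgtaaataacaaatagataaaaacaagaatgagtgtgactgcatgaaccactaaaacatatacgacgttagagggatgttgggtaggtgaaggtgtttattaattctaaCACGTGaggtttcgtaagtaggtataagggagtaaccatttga
ACGTG was present in 17 of 29 promoters of the glucosinolate list (58.6%), against 26.9% of all promoters and 27.4% of those of genes that rose. Other lists ran from 11.1% (Casparian strip and endodermis) to 78.6% (LEA), with 66.7% in the flavonoid list and 60.0% in the jasmonate list. At 22 °C, 22 of the 29 genes rose between the same days, against 20.3% of all genes tested, with a median of 1.12, and for 25 of the 29 the sign was the same at both temperatures.

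Part of the small heat shock protein genes rose on day 7 at 27 °C, with the highest values in the pif4 hybrid library. Of 12 tested genes of the 15 in the list, 6 rose and none fell, against 15.6% and 13.2% of all genes, with a median log2 fold change of 1.75, of 2.06 in the pif4 hybrid and of 0.81 in the Col hybrid. The median was 0.959 without the pif4 hybrid library of day 4 and close to that without its library of day 7. For 2 of the 6, HSP17.6II and HSP23.6-MITO, only the day 7 libraries reached the count minimum, so the count and median support nothing further. Between 5 and 9 rose when single libraries were left out, the highest without the Col hybrid library of day 4. The summed level of the 12 genes was 153 CPM in the pif4 hybrid and 75.8 CPM in the Col hybrid on day 7, against 37.8 and 40.3 CPM on day 4. At 22 °C it was 43.0 and 37.3 CPM on day 7, against 45.9 and 46.6 CPM on day 4.

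HSP17.6A, a cytosolic class II protein, had 36.5 and 14.6 CPM on day 7 in the pif4 and Col hybrids, against 1.37 and 1.296 CPM on day 4 (log2 fold change 4.33 ± 0.28 SE, adjusted p = 1.25e-07). HSP17.6II, its neighbour on chromosome 5 and a close copy, had 11.7 and 4.08 CPM on day 7 in the pif4 and Col hybrids, against 0.353 and 0 CPM on day 4. HSP17.4, a cytosolic class I protein, had 23.01 and 11.7 CPM on day 7 in the pif4 and Col hybrids, against 1.85 and 1.19 CPM on day 4 (log2 fold change 3.52 ± 0.24 SE, adjusted p = 2.78e-07). The pif4 hybrid on day 7 was the highest library for each, and the Col hybrid on day 7 came next. AT1G53540, also annotated as an HSP20-like chaperone, had 14.8 and 6.51 CPM on day 7 in the pif4 and Col hybrids, against 0.9696 and 1.08 CPM on day 4 (log2 fold change 3.47 ± 0.32 SE, adjusted p = 5.43e-06). AT1G07400, of the same family, had 18.1 and 5.63 CPM on day 7 in the pif4 and Col hybrids, against 1.19 and 1.08 CPM on day 4 (log2 fold change 3.36 ± 0.41 SE, adjusted p = 7.13e-05). At 22 °C the 3 genes HSP17.6A, HSP17.4 and AT1G53540 stayed at or below 0.716 CPM in all 4 libraries. Their day by temperature terms did not pass the test, with adjusted p values of 0.188, 0.0846 and 0.645. The 6 members that did not pass had log2 fold changes from -0.23 to 0.62.

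**Figure D5:**
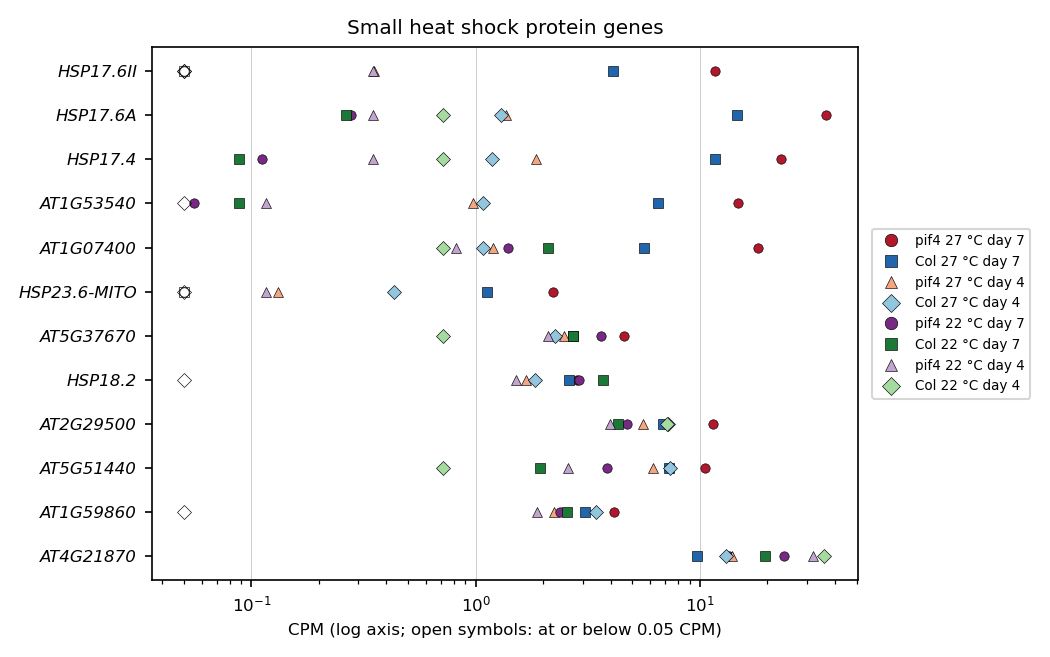
Level in CPM (horizontal log axis) of the 12 tested small heat shock protein genes in all 8 libraries, ordered from the largest rise at the top; open symbols mark values at or below 0.05 CPM. The pif4 hybrid (red circle) and the Col hybrid (blue square) on day 7 at 27 °C are the 2 highest for the 6 genes that rose, as for HSP17.6A with 36.5 and 14.6 CPM, while the lower rows mix.

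The HSP17.4 promoter is shown because the letters of the heat shock element core, GAANNTTC, occur close to its start; it lies at chr3:16984868-16985117 (minus strand; 250 bases before the start, TAIR10.1), with GAANNTTC in capitals, which reads the same on both strands.
HSP17.4: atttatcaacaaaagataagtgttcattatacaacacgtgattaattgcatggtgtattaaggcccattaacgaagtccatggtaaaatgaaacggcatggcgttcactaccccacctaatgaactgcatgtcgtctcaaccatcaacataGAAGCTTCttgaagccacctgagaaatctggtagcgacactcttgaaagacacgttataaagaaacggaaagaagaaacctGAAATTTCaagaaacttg
The 2 matches begin 92 and 11 bases before the start, counted at their near ends. GAANNTTC occurred in 5 of 15 promoters of this list (33.3%) and in 5 of 24 of the list of larger chaperones and heat shock factors (20.8%), against 11.5% of all promoters.

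Among 22 tested genes of larger chaperones and heat shock factors there were 3 rises and 4 falls, against 15.6% and 13.2% of all genes (median -0.23). Rises and falls were 1 and 2 without the pif4 hybrid library of day 7, 2 and 1 without the Col hybrid library of day 7, 1 and 5 without the pif4 hybrid library of day 4 and 4 and 6 without the Col hybrid library of day 4. Hsp70b, a cytosolic HSP70 induced by heat, had 24.5 and 16.1 CPM on day 7 in the pif4 and Col hybrids, against 8.15 and 7.02 CPM on day 4 (log2 fold change 1.4 ± 0.19 SE, adjusted p = 0.00016). BIP2, a chaperone of the endoplasmic reticulum, had 51.6 and 56.1 CPM on day 7 in the pif4 and Col hybrids, against 90.8 and 88.0 CPM on day 4 (log2 fold change -0.74 ± 0.14 SE, adjusted p = 0.00213). BIP1, a near-identical copy whose reads may be shared with BIP2, had 97.1 and 105 CPM on day 7 in the pif4 and Col hybrids, against 141 and 151 CPM on day 4. From the 4 libraries at 27 °C alone BIP1 lost its call (adjusted p = 0.13). BIP1 also lost it without the Col or the pif4 hybrid library of day 7, at log2 fold changes of -0.52 and -0.542. Hsp70b was thus higher on day 7 in both hybrids, and the BIP genes were lower.

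Most genes of the root hair list fell. Root hairs are tubular outgrowths of the root epidermis, and their wall proteins and expansins are made mainly there. All 8 genes of the list were tested, 7 fell and none rose, against 13.2% and 15.6% of all genes, with a median of -1.44, of -1.45 in the pif4 hybrid and of -1.51 in the Col hybrid. For 2 of the 7 only the day 4 libraries reached the count minimum, and the number that fell was 4 to 7 when single libraries were left out, the lowest without the Col hybrid library of day 7. The summed level was 16.8 CPM in the pif4 hybrid and 15.3 CPM in the Col hybrid on day 7, against 45.8 and 43.4 CPM on day 4. PRP3, a proline-rich wall protein, had 3.17 and 3.98 CPM on day 7 in the pif4 and Col hybrids, against 15.8 and 12.7 CPM on day 4 (log2 fold change -2.0 ± 0.22 SE, adjusted p = 2.86e-05). LRX1, a leucine-rich repeat extensin, had 2.47 and 2.29 CPM on day 7 in the pif4 and Col hybrids, against 10.8 and 7.88 CPM on day 4 (log2 fold change -2.04 ± 0.28 SE, adjusted p = 0.000195). PRP1, a relative of PRP3, had 0.176 and 0.0704 CPM on day 7 in the pif4 and Col hybrids, against 2.12 and 3.02 CPM on day 4, and only its day 4 libraries reached the count minimum. The days did not overlap in any of these. RHD6, an early regulator of hair fate, did not pass the test and had a log2 fold change of 0.36. At 22 °C, 7 of the 8 fell as well, against 18.9% of all genes tested, with a median of -2.5, and the sign was the same at both temperatures for all 8.

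Of 8 tested Casparian strip and endodermis genes, 2 fell and none rose, against 13.2% and 15.6% of all genes, with a median of -0.08. CASP5, a scaffold protein of the strip, had 4.23 and 6.12 CPM on day 7 in the pif4 and Col hybrids, against 9.56 and 16.3 CPM on day 4 (log2 fold change -1.32 ± 0.19 SE, adjusted p = 0.000237). SCR, a transcription factor that specifies the endodermis, had 24.2 and 30.8 CPM on day 7 in the pif4 and Col hybrids, against 48.1 and 42.8 CPM on day 4 (log2 fold change -0.74 ± 0.15 SE, adjusted p = 0.00291). SCR lost its call without the pif4 hybrid library of day 7, at a log2 fold change of -0.632. None of 13 xylem and secondary wall genes passed the test by edgeR or by DESeq2, 1 of them had an unadjusted p under 0.05, and 4 of them fell without the Col hybrid library of day 4. Of the 15 tested genes of trichomes and stomata 2 rose and none fell, against 15.6% and 13.2% of all genes. STOMAGEN, a peptide that promotes stomata, had 74.3 and 55.3 CPM on day 7 in the pif4 and Col hybrids. On day 4 it had 31.6 and 34.7 CPM (log2 fold change 0.96 ± 0.15 SE, adjusted p = 0.000551). AT4G31805, known as POLAR in the stomatal lineage, had 9.26 and 8.06 CPM on day 7 in the pif4 and Col hybrids, against 5.33 and 3.46 CPM on day 4 (log2 fold change 0.91 ± 0.22 SE, adjusted p = 0.00715). AT4G31805 lost its call without the pif4 hybrid library of day 7, at a log2 fold change of 0.836. In STOMAGEN and AT4G31805 the day 7 libraries were higher, in CASP5 and SCR the day 4 libraries.

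Among 11 tested genes of nitrate and phosphate supply there were 4 falls and 1 rise, against 13.2% and 15.6% of all genes (median -0.39), and 4 fell in each fit that left a library out. NIA1, a nitrate reductase, had 161 and 154 CPM on day 7 in the pif4 and Col hybrids, against 458 and 503 CPM on day 4 (log2 fold change -1.61 ± 0.18 SE, adjusted p = 2.45e-05). PHT1;4, a phosphate transporter of the root, had 8.64 and 6.51 CPM on day 7 in the pif4 and Col hybrids, against 20.4 and 22.03 CPM on day 4 (log2 fold change -1.52 ± 0.17 SE, adjusted p = 3.96e-05). NRT1.8, which takes nitrate out of the xylem and is outside the list, had 0.353 and 0.211 CPM on day 7 in the pif4 and Col hybrids, against 12.6 and 16.3 CPM on day 4, and only its day 4 libraries reached the count minimum. In each the day 4 libraries were well above the day 7 libraries. PHT1;1, a second phosphate transporter, had 54.3 and 59.9 CPM on day 7 in the pif4 and Col hybrids, against 88.01 and 85.3 CPM on day 4. The call of PHT1;1 was lost with adjusted p = 0.105 without the pif4 hybrid library of day 7.

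Of 17 tested genes of iron uptake and storage, 4 rose and 5 fell, against 15.6% and 13.2% of all genes. These counts were 3 and 2 without the pif4 hybrid library of day 7, 3 and 5 without the Col hybrid library of day 7, 3 and 2 without the pif4 hybrid library of day 4 and 5 and 7 without the Col hybrid library of day 4. FER4, a ferritin that stores iron in plastids, had 42.4 and 43.3 CPM on day 7 in the pif4 and Col hybrids, against 17.5 and 23.3 CPM on day 4 (log2 fold change 1.09 ± 0.15 SE, adjusted p = 0.000227). FER1, another ferritin, had 106 and 146 CPM on day 7 in the pif4 and Col hybrids, against 67.9 and 88.1 CPM on day 4 (log2 fold change 0.69 ± 0.16 SE, adjusted p = 0.00615). OPT3, an iron carrier of the phloem, had 38.5 and 40.4 CPM on day 7 in the pif4 and Col hybrids, against 107 and 62.9 CPM on day 4 (log2 fold change -1.09 ± 0.2 SE, adjusted p = 0.00134). ABCG37, which exports coumarins from the root, had 139.7 and 151 CPM on day 7 in the pif4 and Col hybrids, against 330.3 and 286 CPM on day 4 (log2 fold change -1.08 ± 0.16 SE, adjusted p = 0.000304). BTS, a ubiquitin ligase that regulates the iron response, had 69.1 and 81.4 CPM on day 7 in the pif4 and Col hybrids, against 167 and 106 CPM on day 4 (log2 fold change -0.85 ± 0.19 SE, adjusted p = 0.00549). BTS lost its call without the pif4 hybrid library of day 4 or of day 7, at log2 fold changes of -0.416 and -0.645. FER4 and FER1 were higher and OPT3, ABCG37 and BTS lower in both day 7 libraries.

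The light harvesting and carbon fixation list holds proteins of the antennae and photosystems and the small subunits of Rubisco, and all 38 genes were tested. None rose and 1 fell, against 15.6% and 13.2% of all genes. The median log2 ratio of day 7 over day 4 was 0.44 in the pif4 hybrid and -0.81 in the Col hybrid. Summed levels were 74090 CPM in the pif4 hybrid and 43400 CPM in the Col hybrid on day 7, against 51370 and 77630 CPM on day 4. For 37 of the 38 the days overlapped. LHCB4.3, which was lower on day 7 in both hybrids, was called by edgeR at adjusted p = 0.0339. With DESeq2 it lost the call (adjusted p = 0.067). It also did without the Col hybrid library of day 4 or of day 7, at log2 fold changes of -0.513 and -0.382. Without the Col or the pif4 hybrid library of day 4 at 22 °C the call was lost as well, at -0.815 in each. Without the pif4 hybrid library of day 7, 34 fell, and without the Col hybrid library of day 7, 12 rose. The library totals and the 100 most abundant genes, given above, moved with this contrast, since each hybrid's deeper library had the lower summed level, and their part in the result was not tested. Members of this list are abundant and may be among those 100 genes, so the shifts of the 100 genes and of the list need not be independent. In chlorophyll synthesis, 1 of 20 genes rose and none fell, against 15.6% and 13.2% of all genes. The 1 that rose was PORB, which reduces protochlorophyllide in light. PORB had 419 and 406 CPM on day 7 in the pif4 and Col hybrids. On day 4 it had 202 and 246 CPM (log2 fold change 0.89 ± 0.17 SE, adjusted p = 0.00182).

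Of 17 genes of DNA replication, 5 fell and none rose, against 13.2% and 15.6% of all genes, with a median of -0.43, of -0.36 in the pif4 hybrid and of -0.46 in the Col hybrid. With DESeq2 2 fell, and by edgeR the number was 1 without the pif4 hybrid library of day 7 and 7 without the Col hybrid library of day 4. RNR1, the large subunit of ribonucleotide reductase, had 20.9 and 24.4 CPM on day 7 in the pif4 and Col hybrids, against 36.8 and 37.8 CPM on day 4 (log2 fold change -0.72 ± 0.15 SE, adjusted p = 0.00299). PRL, a subunit of the MCM helicase, had 9.96 and 11.6 CPM on day 7 in the pif4 and Col hybrids, against 14.6 and 17.7 CPM on day 4 (log2 fold change -0.57 ± 0.16 SE, adjusted p = 0.0188). With DESeq2 PRL lost its call (adjusted p = 0.0631). PRL also lost it without the Col or the pif4 hybrid library of day 7, at log2 fold changes of -0.625 and -0.52. ICU2, the catalytic subunit of DNA polymerase alpha, had 11.5 and 13.6 CPM on day 7 in the pif4 and Col hybrids, against 21.6 and 18.7 CPM on day 4 (log2 fold change -0.69 ± 0.18 SE, adjusted p = 0.0108). Both day 4 libraries were above both day 7 libraries in each, and for ICU2 the call was lost with adjusted p = 0.101 without the pif4 hybrid library of day 4 and 0.12 without the pif4 hybrid library of day 7. Of 21 mitosis genes 1 fell and none rose, against 13.2% and 15.6% of all genes. It was HIK, a kinesin of cell division. HIK lost its call without the Col hybrid library of day 7, at a log2 fold change of -0.546. It also did without the pif4 hybrid library of day 4 or of day 7, at -0.561 and -0.705.

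The ICU2 promoter is shown because it holds both forms of the E2F site searched, TTTCCCGC and TTTGGCGC; it lies at chr5:26776703-26776952 (plus strand; 250 bases before the start, TAIR10.1, both forms on either strand in capitals).
ICU2: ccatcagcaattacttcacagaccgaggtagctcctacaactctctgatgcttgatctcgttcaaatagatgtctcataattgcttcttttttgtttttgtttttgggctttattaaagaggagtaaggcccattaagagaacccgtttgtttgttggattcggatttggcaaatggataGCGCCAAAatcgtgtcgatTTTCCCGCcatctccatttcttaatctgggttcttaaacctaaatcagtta
TTTCCCGC was found in 6 of 17 promoters of the replication list (35.3%), against 0.797% of all promoters, and TTTGGCGC in 4 of 17, against 0.438%. Among genes that fell the shares were 0.806% and 0.46%.

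Of 18 leaf growth regulators, 2 rose and 3 fell, which is near the 15.6% and 13.2% of all genes. The counts were 0 and 1 without the pif4 hybrid library of day 7, 2 and 3 without the Col hybrid library of day 7, 1 and 2 without the pif4 hybrid library of day 4 and 2 and 5 without the Col hybrid library of day 4. ARGOS, which promotes organ growth and responds to auxin, had 3.88 and 6.55 CPM on day 7 in the pif4 and Col hybrids, against 7.14 and 13.7 CPM on day 4 (log2 fold change -0.98 ± 0.2 SE, adjusted p = 0.00286). CYP78A5, which prolongs organ growth, had 11.02 and 12.7 CPM on day 7 in the pif4 and Col hybrids, against 17.85 and 19.8 CPM on day 4. The call of CYP78A5 was lost with adjusted p = 0.0652 without the pif4 hybrid library of day 7. CYCD3;2, a D-type cyclin, had 158 and 126 CPM on day 7 in the pif4 and Col hybrids, against 92.4 and 89.2 CPM on day 4. From the 4 libraries at 27 °C alone CYCD3;2 lost its call (adjusted p = 0.0516). CYCD3;2 also lost it without the pif4 hybrid library of day 7, at a log2 fold change of 0.535. Of 16 expansins and xyloglucan enzymes, 4 rose and 3 fell, against 15.6% and 13.2% of all genes. Their counts were 1 and 3 without the pif4 hybrid library of day 7, 4 and 2 without the Col hybrid library of day 7, 2 and 3 without the pif4 hybrid library of day 4 and 7 and 2 without the Col hybrid library of day 4. EXPA16 had 24.9 and 21.8 CPM on day 7 in the pif4 and Col hybrids, against 80.2 and 78.5 CPM on day 4 (log2 fold change -1.78 ± 0.16 SE, adjusted p = 5.01e-06). XTH9 had 123 and 99.1 CPM on day 7 in the pif4 and Col hybrids, against 58.4 and 63.8 CPM on day 4 (log2 fold change 0.86 ± 0.15 SE, adjusted p = 0.00127). EXPA16 was higher in both day 4 libraries and XTH9 in both day 7 libraries. EXPA2, an expansin of germinating seeds, was tested through its day 4 libraries only and had 0 counts on day 7 and 45 on day 4, at least 18.7-fold lower against a floor of 3 counts over the group.

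Genes of shade avoidance and warm elongation growth, many of which PIF proteins regulate, gave 4 rises and 6 falls among 21 tested, against 15.6% and 13.2% of all genes. The 2 counts were 1 and 3 without the pif4 hybrid library of day 7, 4 and 4 without the Col hybrid library of day 7, 1 and 8 without the pif4 hybrid library of day 4 and 5 and 6 without the Col hybrid library of day 4. XTH15, a wall enzyme of elongating organs, had 63.5 and 149 CPM on day 7 in the pif4 and Col hybrids, against 199 and 394 CPM on day 4 (log2 fold change -1.52 ± 0.19 SE, adjusted p = 7.71e-05). IBH1, an inhibitor of elongation, had 22.7 and 27.9 CPM on day 7 in the pif4 and Col hybrids, against 10.4 and 13.2 CPM on day 4 (log2 fold change 1.1 ± 0.15 SE, adjusted p = 0.000176). XTH15 was lower and IBH1 higher on day 7 in both hybrids. YUC8, which makes auxin, had 9.26 and 12.2 CPM on day 7 in the pif4 and Col hybrids, against 13.6 and 20.9 CPM on day 4. The call of YUC8 was lost with adjusted p = 0.0673 without the Col hybrid library of day 7 and 0.0639 without the pif4 hybrid library of day 7. LNG1, which promotes cell elongation, had 35.0 and 48.3 CPM on day 7 in the pif4 and Col hybrids, against 63.3 and 67.6 CPM on day 4. The call of LNG1 was lost with adjusted p = 0.0662 without the pif4 hybrid library of day 7.

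Early auxin genes gave 2 rises and 3 falls among 18, near the 15.6% and 13.2% of all genes. The numbers were 0 and 3 without the pif4 hybrid library of day 7, 3 and 2 without the Col hybrid library of day 7, 0 and 6 without the pif4 hybrid library of day 4 and 4 and 3 without the Col hybrid library of day 4. GH3.3, which conjugates auxin to amino acids, had 11.3 and 15.2 CPM on day 7 in the pif4 and Col hybrids, against 23.4 and 28.5 CPM on day 4 (log2 fold change -0.97 ± 0.15 SE, adjusted p = 0.000413). AT1G14120, known as DAO2, had 35.9 and 26.54 CPM on day 7 in the pif4 and Col hybrids, against 18.1 and 21.6 CPM on day 4 (log2 fold change 0.65 ± 0.18 SE, adjusted p = 0.0142). AT1G14120 lost its call without the pif4 hybrid library of day 4 or of day 7, at log2 fold changes of 0.266 and 0.545. IAA19, an auxin-induced repressor, had 13.8 and 16.6 CPM on day 7 in the pif4 and Col hybrids, against 16.5 and 49.02 CPM on day 4. The call of IAA19 was lost with adjusted p = 0.164 without the Col hybrid library of day 4 and 0.212 without the Col hybrid library of day 7. GH3.3 was lower on day 7 without overlap, and IAA19 stood out in the Col hybrid on day 4. Of the 8 PIF family genes 1 fell and none rose, against 13.2% and 15.6% of all genes. UNE10, also called PIF8, had 13.5 and 10.8 CPM on day 7 in the pif4 and Col hybrids. On day 4 it had 26.3 and 16.4 CPM (log2 fold change -0.81 ± 0.16 SE, adjusted p = 0.00288).

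Of 14 tested genes of vegetative phase change, 2 rose and 2 fell, which is near the 15.6% and 13.2% of all genes. The counts were 1 and 1 without the pif4 hybrid library of day 7, 1 and 1 without the Col hybrid library of day 7, 0 and 2 without the pif4 hybrid library of day 4 and 2 and 5 without the Col hybrid library of day 4. TOE2, an AP2-type repressor of flowering that miR172 targets, had 29.6 and 28.2 CPM on day 7 in the pif4 and Col hybrids, against 60.1 and 50.6 CPM on day 4 (log2 fold change -0.94 ± 0.14 SE, adjusted p = 0.000294). SPL13A, a promoter of adult leaf traits, had 23.2 and 20.4 CPM on day 7 in the pif4 and Col hybrids, against 14.9 and 15.3 CPM on day 4. With DESeq2 SPL13A lost its call (adjusted p = 0.0698). SPL13A also lost it without the pif4 hybrid library of day 4 or of day 7, at log2 fold changes of 0.455 and 0.419. SPL4, which acts in the shoot apex, had 2.998 and 2.67 CPM on day 7 in the pif4 and Col hybrids, against 1.23 and 1.19 CPM on day 4. The call of SPL4 was lost with adjusted p = 0.0566 without the Col hybrid library of day 7 and 0.116 without the pif4 hybrid library of day 4. TOE2 was lower in both day 7 libraries, and both SPL genes were higher.

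Among 12 tested flowering time genes 5 rose and none fell, against 15.6% and 13.2% of all genes. The number that rose was 3 without the pif4 hybrid library of day 7, the Col hybrid library of day 7 or the pif4 hybrid library of day 4, and 6 without the Col hybrid library of day 4. SVP, a MADS-box repressor of flowering, had 93.8 and 109 CPM on day 7 in the pif4 and Col hybrids, against 42.3 and 47.8 CPM on day 4 (log2 fold change 1.17 ± 0.15 SE, adjusted p = 7.71e-05). AGL24, a MADS-box promoter of flowering, had 3.35 and 1.83 CPM on day 7 in the pif4 and Col hybrids, against 0.529 and 0.648 CPM on day 4, and only its day 7 libraries reached the count minimum. MAF4, a relative of FLC, had 11.1 and 9.19 CPM on day 7 in the pif4 and Col hybrids, against 6.88 and 4.32 CPM on day 4. The call of MAF4 was lost with adjusted p = 0.0841 without the Col hybrid library of day 7. All of these were higher on day 7 in both hybrids. The clock list, read at ZT0 only, gave 4 rises and 2 falls among 23, against 15.6% and 13.2% of all genes. Its counts were 1 and 1 without the pif4 hybrid library of day 7, 2 and 1 without the Col hybrid library of day 7, 1 and 1 without the pif4 hybrid library of day 4 and 5 and 6 without the Col hybrid library of day 4. TCP11, which is also known as CHE, had 95.1 and 75.7 CPM on day 7 in the pif4 and Col hybrids, against 57.5 and 59.8 CPM on day 4 (log2 fold change 0.53 ± 0.15 SE, adjusted p = 0.0141). From the 4 libraries at 27 °C alone TCP11 lost its call (adjusted p = 0.069). TCP11 also lost it without the pif4 hybrid library of day 4 or of day 7, at log2 fold changes of 0.399 and 0.405. GI, an evening gene, had 9.79 and 12.1 CPM on day 7 in the pif4 and Col hybrids, against 15.9 and 17.9 CPM on day 4. With DESeq2 GI lost its call (adjusted p = 0.059). GI also lost it without the Col or the pif4 hybrid library of day 7, at log2 fold changes of -0.683 and -0.578. PRR9, a morning repressor, had 12.4 and 10.98 CPM on day 7 in the pif4 and Col hybrids, against 8.07 and 6.802 CPM on day 4. With DESeq2 PRR9 lost its call (adjusted p = 0.0826). PRR9 also lost it without the Col or the pif4 hybrid library of day 7, at log2 fold changes of 0.705 and 0.564.

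Of 19 tested jasmonate genes, 7 rose and 2 fell, against 15.6% and 13.2% of all genes. For 1 of the 7 only the day 7 libraries reached the count minimum, and 5 to 8 rose when single libraries were left out. LOX2, a lipoxygenase of jasmonate synthesis in leaves, had 16.8 and 11.1 CPM on day 7 in the pif4 and Col hybrids, against 2.69 and 1.84 CPM on day 4 (log2 fold change 2.57 ± 0.22 SE, adjusted p = 1.99e-06). OPR3, a later enzyme of that synthesis, had 19.7 and 19.6 CPM on day 7 in the pif4 and Col hybrids, against 12.3 and 12.2 CPM on day 4 (log2 fold change 0.69 ± 0.15 SE, adjusted p = 0.00389). JAZ6, a repressor of jasmonate responses, had 31.5 and 31.5 CPM on day 7 in the pif4 and Col hybrids, against 13.8 and 12.5 CPM on day 4 (log2 fold change 1.26 ± 0.14 SE, adjusted p = 2.8e-05). TIFY7, also called JAZ9, had 46.9 and 53.5 CPM on day 7 in the pif4 and Col hybrids, against 26.53 and 31.3 CPM on day 4 (log2 fold change 0.8 ± 0.14 SE, adjusted p = 0.00111). In each the day 7 libraries were higher. The 2 hybrids were close within a day for OPR3, JAZ6 and TIFY7, while LOX2 was higher in the pif4 hybrid on both days. These 4 are rises, while the log2 fold changes of the list ran from -1.66 to 2.57, with 8 of the 19 below 0.

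Of 13 tested salicylic acid genes 3 rose, and none of the 3 did without the pif4 hybrid library of day 7. Over all genes 15.6% rose and 13.2% fell. CBP60G, a transcription factor of salicylic acid synthesis, had 5.03 and 4.96 CPM on day 7 in the pif4 and Col hybrids, against 2.78 and 2.59 CPM on day 4 (log2 fold change 0.85 ± 0.25 SE, adjusted p = 0.0211). CBP60G lost its call with DESeq2 (adjusted p = 0.0727) and with edgeR on counts thinned to a common depth (adjusted p = 0.0643). WRKY54 had 1.68 and 1.34 CPM on day 7 in the pif4 and Col hybrids, against 1.014 and 0.216 CPM on day 4 (log2 fold change 1.24 ± 0.43 SE, adjusted p = 0.0427). The Col hybrid value on day 4 is 2 counts. WRKY54 lost its call with DESeq2 (adjusted p = 0.138). It also lost it by edgeR with a hybrid effect at each temperature (0.0703) and with counts thinned to a common depth (0.062). Without the Col hybrid library of day 7 its log2 fold change was 0.857. PBS3, an enzyme of that synthesis, had 2.03 and 1.09 CPM on day 7 in the pif4 and Col hybrids, against 0.397 and 0.324 CPM on day 4, and only its day 7 libraries reached the count minimum. Of 8 tested flavonoid genes 1 rose and none fell, against 15.6% and 13.2% of all genes. The 1 that rose was MYBL2, a repressor of that pathway. Its adjusted p was 0.0386, and it was above 0.05 in 11 of the 17 alternatives. Of 15 sugar starvation genes, 1 rose and 2 fell, against 15.6% and 13.2% of all genes. DYL1, also called DRM1 and high in dormant buds, had 326 and 335 CPM on day 7 in the pif4 and Col hybrids, against 111 and 189.8 CPM on day 4 (log2 fold change 1.18 ± 0.2 SE, adjusted p = 0.000813). TPS9, of the trehalose phosphate synthase family, had 118 and 167 CPM on day 7 in the pif4 and Col hybrids, against 216 and 219.6 CPM on day 4. From the 4 libraries at 27 °C alone TPS9 lost its call (adjusted p = 0.0979). TPS9 also lost it without the pif4 hybrid library of day 7, at a log2 fold change of -0.414. AT1G60140, known as TPS10 of that family, had 93.9 and 122 CPM on day 7 in the pif4 and Col hybrids, against 139.8 and 158 CPM on day 4 (log2 fold change -0.47 ± 0.14 SE, adjusted p = 0.0228). From the 4 libraries at 27 °C alone AT1G60140 lost its call (adjusted p = 0.19). Without the pif4 hybrid library of day 7 its log2 fold change was -0.365. DYL1 was higher in both day 7 libraries, and TPS9 and AT1G60140 were lower. Of 10 tested abscisic acid and cold genes, 2 rose and 3 fell, against 15.6% and 13.2% of all genes. For COR15A, which rose, and ABI3, which fell, only 1 day reached the count minimum. KIN2, a cold-induced protein, had 49.1 and 40.6 CPM on day 7 in the pif4 and Col hybrids, against 8.33 and 16.3 CPM on day 4 (log2 fold change 1.94 ± 0.23 SE, adjusted p = 4.72e-05). COR15A, a chloroplast protein of the cold response, had 42 counts on day 7 and 3 on day 4, a ratio of 11.3 (exact 95% interval 3.6 to 56.8).

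The day effect at 27 °C was then set against that at 22 °C in the same model. Over 13114 genes averaging at least 10 CPM at 27 °C, the log2 effects at the 2 temperatures had a Pearson r of 0.84 across genes. The sign was the same for 82.5% of all genes tested. The difference passed the test for 16 genes whose log2 day effect was higher, that is more positive or less negative, at 27 °C (0.0798%) and for 45 whose effect was lower (0.224%). These counts depended on the day 4 libraries. At 22 °C, without that of the Col hybrid, which held 1664128 counts, they were 0 and 0, and without that of the pif4 hybrid 1 and 0. At 27 °C the day 4 library of the pif4 hybrid mattered most, and without it they were 1022 and 783.

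Genes with the lower effect at 27 °C included seed genes. LEA18 had 2.47 and 1.62 CPM on day 7 in the pif4 and Col hybrids, against 6.74 and 26.02 CPM on day 4, and 6.95 and 12.6 CPM on day 7 in the pif4 and Col hybrids at 22 °C, against 0.468 and 0.716 CPM on day 4 (difference of the log2 effects -6.89 ± 0.78 SE, adjusted p = 0.00186). LEA7 had 4.62 and 3.25 CPM on day 7 in the pif4 and Col hybrids at 22 °C, against 0.584 and 5.01 CPM on day 4 (difference -6.54 ± 0.89 SE, adjusted p = 0.00349). AT3G17520 had 0.529 and 0.493 CPM on day 7 in the pif4 and Col hybrids, against 10.9 and 46.5 CPM on day 4. At 22 °C these levels were 4.06 and 2.81 CPM on day 7, against 0.701 and 1.43 CPM on day 4. AT3G17520 passed the test of the difference, but at 27 °C only its day 4 libraries reached the count minimum. In both hybrids the day 4 level of these genes was higher at 27 °C than at 22 °C. The day 4 levels at 22 °C rest on few counts. In the pif4 and Col hybrids these were 4 and 1 for LEA18, 5 and 7 for LEA7 and 6 and 2 for AT3G17520. Genes with the higher effect at 27 °C included extensins of the root. EXT6 had 1.41 and 1.34 CPM on day 7 in the pif4 and Col hybrids, against 8.95 and 7.99 CPM on day 4, and 0.667 and 0.527 CPM on day 7 in the pif4 and Col hybrids at 22 °C, against 17.5 and 21.5 CPM on day 4 (difference 2.27 ± 0.43 SE, adjusted p = 0.0361). EXT10 had 2.12 and 1.65 CPM on day 7 in the pif4 and Col hybrids, against 11.6 and 7.56 CPM on day 4, and 0.667 and 0.702 CPM on day 7 in the pif4 and Col hybrids at 22 °C, against 19.3 and 27.2 CPM on day 4 (difference 2.56 ± 0.47 SE, adjusted p = 0.0314). HRGP1, a hydroxyproline-rich wall protein, had a difference of 2.18 ± 0.4 SE, adjusted p = 0.0297. The extensins fell at both temperatures, and the day 4 level was higher at 22 °C. Over all genes, 0.224% passed this test with the lower effect at 27 °C and 0.0798% with the higher effect. Among list members, 4 of the 13 LEA genes and 2 of the 4 storage and oil body genes passed with the lower effect. They include LEA4-5 and OLEO2, for which only the day 4 libraries at 27 °C reached the count minimum. The LEA and storage counts thus support nothing further. Of the 29 glucosinolate genes 1, IMS2, passed with the higher effect.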

How the data were processed

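Whole-seedling RNA was sequenced in 8 libraries. The deposited table holds raw read counts per gene for 33602 loci; per the submitters' processing notes FastQC 0.11.5, HISAT2, Picard, StringTie 1.3.5, HTSeq 0.6.1p1 and the TAIR10 build were used, with settings not given in the sources used here. Per the labels, stranded and unstranded TruSeq kits were both used.

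A gene was tested if at least 2 libraries at 27 °C reached 0.876 CPM, the level of 10 counts at the median library total; 20054 genes did. The edgeR 4.0.16 quasi-likelihood test (R 4.3.3, limma 3.58.1, TMM factors) was fitted to all 8 libraries with terms for hybrid, temperature and day at each temperature, which leaves 3 residual degrees of freedom; the hybrid is the block that pairs the days. Values in CPM use TMM-scaled totals. Per-hybrid log2 ratios use a prior count of 2. The test of day 7 against day 4 at 27 °C was also run on simulated counts. It recovered 49 and 48 of 50 genes changed by 2 and -2 on the log2 scale. It recovered 38 and 35 of 50 changed by 1 and -1, and called 9 of 19854 unchanged genes. Whether these rates hold for the real libraries was not tested. There the 100 most abundant genes shifted between days by a median log2 of 0.34 in the pif4 hybrid and -0.62 in the Col hybrid. The number of calls also depended on single libraries. The 9 calls thus say little about false calls in the real data. DESeq2 1.42.0 and other alternatives are given below.

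The text names the 8 largest rises and falls past the threshold that averaged at least 5 CPM at 27 °C and had the same sign in both hybrids, up to 3 genes per list with the smallest p, and the 4 highest and lowest differences between temperatures among genes averaging at least 5 CPM over the 8 libraries; the other members named were chosen after their values were seen. The samples, lists and tests were chosen with earlier results of these data known. Lists were described by counts and medians without a set test. Promoters were read from TAIR10.1; RefSeq held 32835 of the loci.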

Additional observations from a re-analysis of the deposited data

Results flagged for a closer look

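For 17 of the genes named above, the day effect at 27 °C differed from that at 22 °C by the test of the difference itself (edgeR, adjusted p under 0.05). Each value is the log2 day effect at 27 °C minus that at 22 °C. The seed and LEA genes had LEA18 at -6.89, LEA7 at -6.54, AT3G17520 at -7.69, AT3G15670 at -5.72, LEA4-5 at -3.9, RAB18 (AT5G66400) at -2.25, PER1 at -6.37, OLEO2 at -9.57 and DELTA-VPE at -5.91. The value of OLEO2 rests on 1 count on day 7 at 27 °C and on few counts at 22 °C, and its size depends on how counts near 0 are fitted. ICL was at -2.88, LTI65 at -2.55 and NRT1.8 at -3.42. For OLEO2, DELTA-VPE, AT3G17520, AT3G15670, LEA4-5 and NRT1.8, only the day 4 libraries at 27 °C reached the count minimum. They could be tested only because they differed at 27 °C, so their differences support nothing further. Higher effects at 27 °C were found for EXT10 at 2.56, AT5G03545, annotated as a protein expressed on phosphate starvation, at 2.48, EXT6 at 2.27, HRGP1 at 2.18 and IMS2 at 1.7. With DESeq2, LEA7, ICL and PER1 lost the call (adjusted p = 0.223, 0.559 and 0.0611). By edgeR with upper-quartile scaling, ICL, LTI65 and PER1 lost it (0.0814, 0.0628 and 0.0555). ICL also lost it with RLE scaling (0.0644). EXT6 and PER1 lost it with counts thinned to a common depth (0.0782 and 0.0694), and EXT6 with library totals as a term (0.0507).

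All 17 of these calls were lost without the day 4 library of the Col hybrid at 22 °C (adjusted p from 0.0887 to 0.331), and 16 of the 17 without that of the pif4 hybrid at 22 °C, where HRGP1 kept its call (adjusted p = 0.0295). None of the 17 was lost without any 1 of the Col hybrid library of day 4, the pif4 hybrid library of day 4 or the pif4 hybrid library of day 7 at 27 °C, and 2, LEA4-5 and EXT6, were lost without the Col hybrid library of day 7 at 27 °C. Without the day 7 libraries at 22 °C, 4 were lost when that of the Col hybrid was left out and 9 when that of the pif4 hybrid was.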

How the results depend on the processing

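Of 66 recomputed counts over all genes, 40 stayed within 1.5 times the value reported. The number of genes lower on day 7 was 1640 with DESeq2 and 1621 from the 4 libraries at 27 °C alone, against 2638. The number with a higher day effect at 27 °C was 35 with DESeq2, 138 with no filter on low counts and 26 with a hybrid effect at each temperature, against 16, and the number with a lower effect was 156 with no filter and 82 with a term for library totals, against 45. Leaving out each library in turn gave 1227 to 4299 genes higher and 929 to 4412 lower on day 7, and 0 to 1022 and 0 to 783 for the difference between temperatures. Leaving out the 17 loci near 0 in the Col hybrid on day 7, an alternative chosen after seeing the data, gave 3195 higher and 2739 lower. No gene called in both changed sign under any alternative run, and the scalings (TMM, RLE, upper quartile) moved the median of all genes by at most 0.0213. Of 107 genes named for the day effect, 77 kept the call in all 17 alternatives and 30 lost it in at least 1, most often (24 genes) without the pif4 hybrid library of day 7. Of 986 recomputed list counts, 852 stayed within the same limit, and of 493 list medians 445 moved by less than the spread between the hybrids. The causes were not tested. The pairing of days by hybrid is in the reported fit, and the labels give no replicate numbers.

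With 1 library per condition, the 3 residual degrees of freedom come from both hybrids and both temperatures, so a day effect that differs between hybrids counts as error. The Col hybrid library of day 4 at 22 °C, with 1664128 counts, has a floor of 2.15 CPM (3 counts), above the level of many seed and small heat shock genes. The floor at 27 °C ran from 0.106 to 0.324 CPM. Floors and intervals cover counting error only.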
